A study of Homo sapiens with 72 samples.

Results

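The regions described here are the places in the genome of REH cells where the histone mark H3K4me2 was measured with and without bryostatin, and above all the 157 of 10791 tested regions where it changed. REH is a human B cell precursor acute lymphoblastic leukaemia line. Bryostatin is a macrocyclic natural product that binds the diacylglycerol site of protein kinase C. Both groups were grown in the same medium, 1 left untreated and 1 given 1 nM bryostatin, overnight by the labels and for a day by the study's supplement, and 3 libraries of each were made by Cut&Tag, in which an antibody steers a transposase to a histone mark so that the DNA beside it can be sequenced. The whole series holds 72 samples, and the libraries of H3K4me3 and H3K27me3 in REH and of H3K4me2 in Raji and NALM6 were used only for comparison. Peaks had been called in each library separately on hg38, and each carries a total signal, the RPKM coverage summed over its bases. Joining peaks of the 6 libraries that shared 1 bp or more gave 20199 regions, of which 10791 held a peak in every library and were tested. The labels do not say that replicates came from separate cultures, so a p-value measures only the spread between these libraries.

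Lysine 4 of histone H3 is dimethylated (H3K4me2) at promoters and enhancers that are active or poised. Its trimethylated form, H3K4me3, is concentrated at the starts of active genes, and H3K27me3 marks genes silenced by Polycomb. Protein kinase C is switched on by diacylglycerol in lymphocyte receptor signalling and feeds the ERK and NF-kB pathways and the AP-1 transcription factors, dimers of the FOS and JUN families. The DNA element that AP-1 binds was first known as the response element to phorbol esters, which occupy the same site on the kinase as bryostatin.

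The sequences shown first are those at the strongest increases that hold an AP-1 element, because among the 9 motifs searched AP-1 had the widest gap in share between the regions that rose and all regions tested. Each line gives 27 bases of hg38, plus strand, with the 7 bases of the match TGANTCA in capitals.
PXN, chr12:120231427-120231453: tctcctccgcTGACTCAtgcctcactc
near IGLL5, chr22:22928934-22928960: ggaggtgttcTGAGTCAgatcagggag
intron of ENSG00000266877, chr17:31596790-31596816: caggggcctgTGACTCAgggctcagtc
LINC02870, chr10:132443763-132443789: cacgggtcccTGACTCAgacctgactg
ITGB2, distal region, chr21:44927634-44927660: tctgcagtgtTGATTCAgctccctttg
intron of MAD1L1, chr7:2018943-2018969: cacccaactcTGAGTCActccacaact
near SH3BP2, chr4:2787658-2787684: tgtagaaaatTGACTCAagcaaacctc

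These are the 7 regions with a match among the 25 largest changes. In their names, near gives the gene of the nearest protein-coding start. The sites read TGACTCA or TGAGTCA, except that of ITGB2, which reads TGATTCA. The surrounding 300 bases at the maximum of the signal are shown for 3 of them that contain no annotated exon, with the AP-1 match again in capitals.
PXN, chr12:120231386-120231685: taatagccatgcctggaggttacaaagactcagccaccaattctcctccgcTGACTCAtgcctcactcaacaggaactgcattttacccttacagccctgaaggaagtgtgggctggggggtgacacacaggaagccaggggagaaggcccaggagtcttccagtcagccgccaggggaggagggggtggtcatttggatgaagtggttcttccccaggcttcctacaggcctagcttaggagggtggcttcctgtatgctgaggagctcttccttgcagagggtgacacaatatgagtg
near IGLL5, chr22:22928676-22928975: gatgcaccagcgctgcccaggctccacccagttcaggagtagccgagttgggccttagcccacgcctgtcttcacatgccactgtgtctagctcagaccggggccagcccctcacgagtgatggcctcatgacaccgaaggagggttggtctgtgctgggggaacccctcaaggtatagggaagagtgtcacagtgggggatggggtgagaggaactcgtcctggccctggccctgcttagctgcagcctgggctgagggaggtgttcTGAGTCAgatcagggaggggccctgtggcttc
near SH3BP2, chr4:2787596-2787895: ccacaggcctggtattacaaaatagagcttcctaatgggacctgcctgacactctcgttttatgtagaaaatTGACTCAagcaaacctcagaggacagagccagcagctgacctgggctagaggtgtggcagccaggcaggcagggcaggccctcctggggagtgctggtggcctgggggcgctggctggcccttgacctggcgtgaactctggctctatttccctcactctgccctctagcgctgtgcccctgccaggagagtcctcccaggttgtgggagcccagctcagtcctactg

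Bryostatin raised H3K4me2 at 153 regions and lowered it at 4 (limma, Benjamini-Hochberg adjusted p under 0.05), which is 1.45% of the regions tested, 1.42% higher and 0.0371% lower. The median increase among the 153 was 0.70 on the log2 scale, or 1.63-fold, and the range was 0.38 to 1.87, with 23 regions above 1. Over all regions tested the median change was -0.02 with an SD of 0.17. The 3 treated libraries all lay outside the range of the untreated ones at 156 of the 157 regions. Over all regions tested, 7.01% had every treated library above every untreated one and 7.7% had every treated library below. Levels below are multiples of the median tested region of the same library, and since the total signal grows with the length of a peak they are not compared between genes. With the replicate number as a block in the fit, 305 regions were called (2.83%), 266 higher and 39 lower, and all 157 regions of the unblocked fit were among them. Leaving out 1 library at a time gave between 62 calls, without bryostatin replicate 1, and 352, without bryostatin replicate 3, and 52 of the 157 regions were called in all 6 of these fits. The last region inside the threshold was at SLX9 (adjusted p = 0.0491) and the first outside was at ST3GAL1 (adjusted p = 0.0501). In bulk libraries more cells with the mark and more of the mark per cell cannot be told apart.

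**Figure D1:**
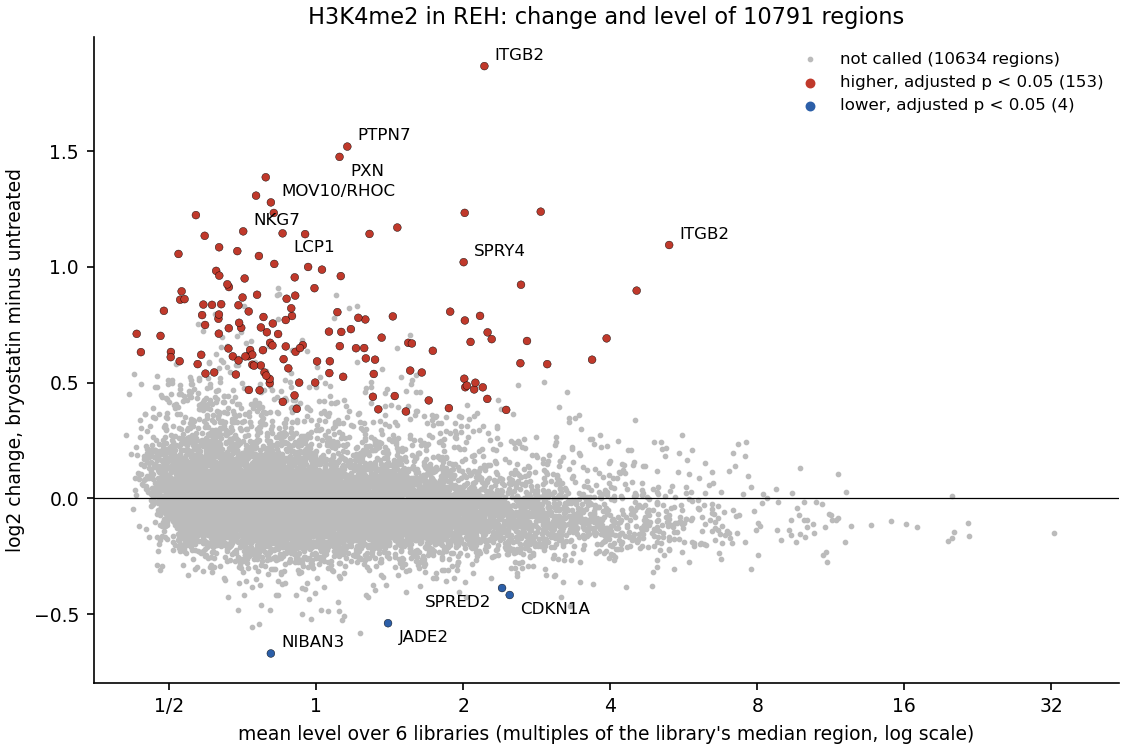
Change of H3K4me2 in REH (y axis, log2, bryostatin minus untreated) against the mean level over 6 libraries (x axis, multiples of the library's median region, log scale) for 10791 regions. Red points are the 153 regions called higher and blue points the 4 called lower. The 2 points named ITGB2, at 1.87 and 1.09, are separate regions of that gene.

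The libraries had between 13.7 and 18.8 M mapped reads without bryostatin and between 18.2 and 22.8 M with it, computed from the RPKM value of a single read, so the treated libraries were mostly deeper. The number of peaks overlapped between groups. REH carried H3K4me2 in all 6 libraries within 1 kb of a start of 13 of 14 B lineage markers, among them CD79A, PAX5 and EBF1, and the one left out, VPREB1, lacked it in 1 treated library. The same held for 3 of 12 T cell markers, 1 of 9 NK cell markers, 5 of 12 myeloid markers and 3 of 9 erythroid and megakaryocytic markers. The T cell and NK cell markers with the mark were CD8A, BCL11B, LCK and NKG7. The others with it were CSF1R, CSF3R, CD68, CEBPE and ITGAM of the myeloid list and EPOR, ITGA2B and GP9 of the last list. Among those without it, CD3D, CD3E, CD14, LYZ, NCAM1 and GATA1 had no region at their starts in any library. These counts have no share over all genes beside them. Of the markers tested, NKG7 passed the test and the others did not.

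The largest change lay at ITGB2, which encodes the β2 (CD18) chain of the leukocyte integrins, adhesion receptors that pair it with CD11 chains. ITGB2 lies on the minus strand of chromosome 21, and 2 separate regions with annotated ITGB2 starts rose. The stronger one, chr21:44917381-44922790, holds the start of the canonical transcript at 44920899 and starts of the antisense RNA ITGB2-AS1. Its level was 0.877, 0.918 and 1.05 in the untreated libraries and 3.13, 3.17 and 4.13 in the treated ones (log2 change 1.87 ± 0.11 (SE), adjusted p = 3.04e-06). The other, chr21:44924111-44936170, lies upstream of the canonical start, over the most distal annotated starts of ITGB2 and further starts of ITGB2-AS1. Its level was 3.28, 3.41 and 3.42 in the untreated libraries and 6.92, 7.32 and 7.35 in the treated ones (log2 change 1.09 ± 0.08 (SE), adjusted p = 2.78e-05). The groups did not overlap at either region, and both were called in every fit that left out 1 library. In maximum signal they rose by 1.21 and 0.75 on the log2 scale (adjusted p = 2.40e-07 and 5.20e-04). The called stretch at the canonical start widened from a mean of 2703 bp to 4937 bp, and the distal one from 8097 bp to 11747 bp. The AP-1 element printed for ITGB2 lies in the distal region. Another region further upstream, at a start of SLX9, rose from 0.798, 0.791 and 0.784 to 1.03, 1.03 and 1.04 (log2 change 0.39), with a change of -0.27 in mean signal per called base and a call lost in each of the 6 fits without 1 library.

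H3K4me3, measured in other libraries of the same cells, was called at the same places more often with bryostatin. The canonical start region held an H3K4me3 peak in 1 of 3 untreated libraries, of 1360 bp with a mean signal of 60.4 RPKM. All 3 treated libraries had one, of 2880, 3060 and 3580 bp with mean signals of 357, 324 and 366 RPKM. At the distal region an H3K4me3 peak was called in 0 of 3 untreated libraries and in treated replicates 2 and 3, with mean signals of 114 and 162 RPKM. Neither place could be tested for H3K4me3, because a peak was not called in all 6 libraries. The repressive mark H3K27me3 had a peak over part of the distal region in 3 untreated and 2 treated libraries.

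Next to ITGB2, the largest increases at protein-coding starts included PTPN7, PXN, MOV10 with RHOC, and LCP1. PTPN7 encodes a haematopoietic tyrosine phosphatase that acts on the MAP kinases, and its start region, chr1:202158641-202166680, stood at 0.777, 0.560 and 0.476 in the untreated libraries and 1.76, 1.96 and 1.42 in the treated ones (log2 change 1.52 ± 0.16 (SE), adjusted p = 3.03e-04). All treated libraries were above all untreated ones. PXN encodes paxillin, a scaffold of focal adhesions, and its region, chr12:120227681-120236600, within 1 kb of starts of shorter PXN transcripts, measured 1.00, 0.473 and 0.363 in the untreated libraries and 1.92, 1.95 and 0.993 in the treated ones (log2 change 1.48 ± 0.31 (SE), adjusted p = 0.0304). Here the groups overlapped, since untreated replicate 1 was as high as treated replicate 3, and the call was lost in 4 of the 6 fits without 1 library. The called length at PXN grew from 3377 to 7773 bp, with a change of 0.94 in maximum signal and 0.17 in mean signal per called base. LCP1 encodes L-plastin, an actin-bundling protein of leukocytes, and its region, chr13:46174921-46184910, measured 0.892, 0.384 and 0.406 in the untreated libraries and 1.23, 1.07 and 1.14 in the treated ones (log2 change 1.14 ± 0.24 (SE), adjusted p = 0.0271). Untreated replicate 1 was again well above the other two, and 4 of the 6 such fits lost the call. The shared start region of MOV10, an RNA helicase, and RHOC, a small GTPase of the cytoskeleton, chr1:112699211-112703140, measured 0.503, 0.487 and 0.424 in the untreated libraries and 1.09, 1.27 and 1.07 in the treated ones (log2 change 1.28 ± 0.11 (SE), adjusted p = 6.12e-05). The 3 treated libraries lay close together and well above the untreated ones.

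**Figure D2:**
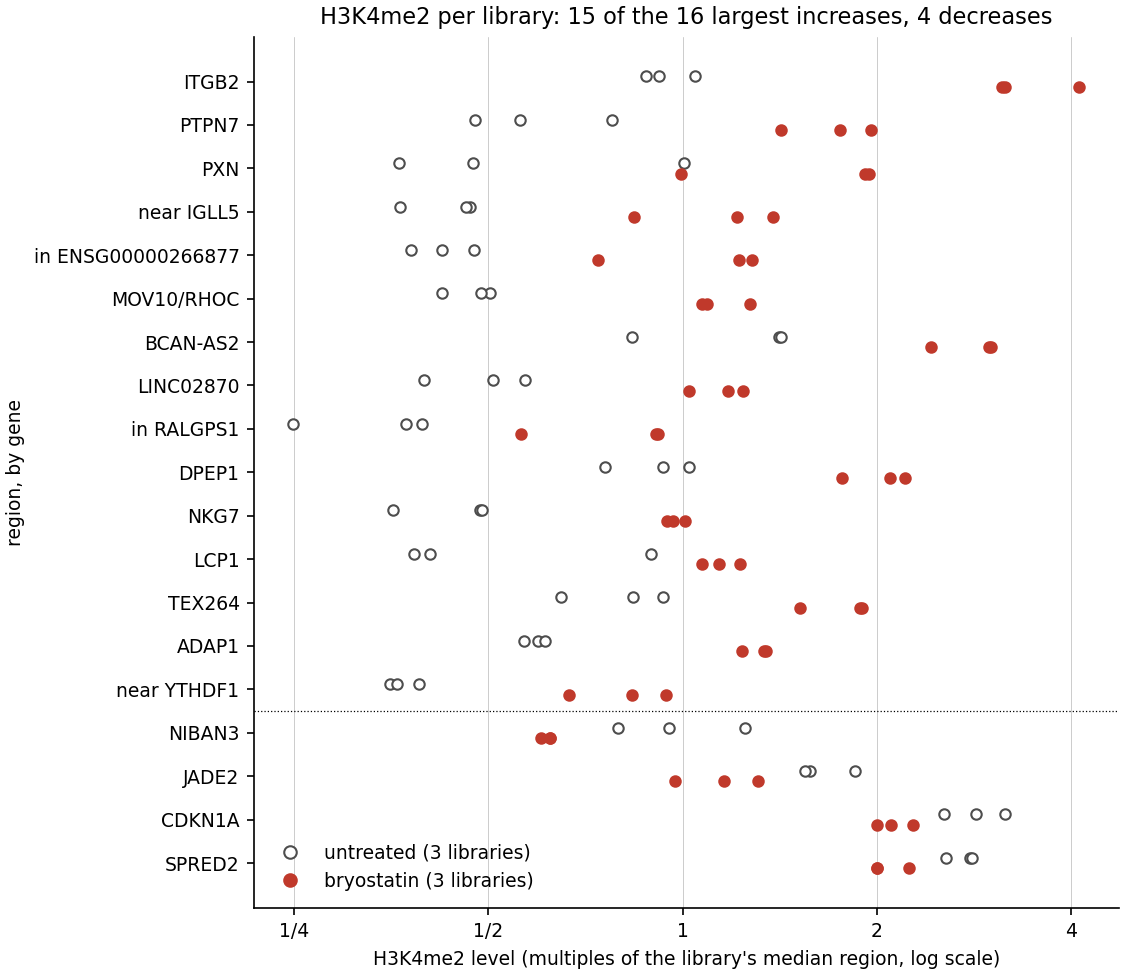
H3K4me2 level in each library (x axis, multiples of the library's median region, log scale) for 15 of the 16 largest increases, above the dotted line, and the 4 decreases, below it (y axis, named by gene). Open circles are the 3 untreated and filled circles the 3 bryostatin libraries, and they overlap at PXN and at no other region shown.

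Feedback and lipid-signalling genes were also among the 25 largest changes. SPRY4, a Sprouty inhibitor of receptor and Ras-ERK signalling, has its start in chr5:142318781-142327060, whose level was 1.38, 1.37 and 1.22 in the untreated libraries and 2.62, 2.84 and 2.59 in the treated ones (log2 change 1.02 ± 0.09 (SE), adjusted p = 5.19e-05). DGKD encodes diacylglycerol kinase delta, which removes diacylglycerol by phosphorylating it. Of its 2 tested start regions, chr2:233417691-233422940 stood at 0.541, 0.533 and 0.546 in the untreated libraries and 1.24, 0.881 and 1.18 in the treated ones (log2 change 1.01 ± 0.13 (SE), adjusted p = 7.22e-04). There the called length grew from 1963 to 4443 bp, and per called base the mean signal changed by -0.06. The other DGKD start region, of higher level, changed by 0.21 (adjusted p = 0.380, limma). PIK3AP1, known as BCAP, links the B cell receptor to phosphoinositide 3-kinase, and its region, chr10:96699511-96705090, had levels of 0.609, 0.695 and 0.617 in the untreated libraries and 1.30, 1.43 and 1.12 in the treated ones (log2 change 1.00 ± 0.11 (SE), adjusted p = 3.47e-04). ADAP1, a GTPase-activating protein for Arf proteins, showed at chr7:921191-926190 levels of 0.567, 0.598 and 0.612 in the untreated libraries and 1.23, 1.34 and 1.35 in the treated ones (log2 change 1.14 ± 0.09 (SE), adjusted p = 4.66e-05). The spread within groups was small at all 4 genes and the groups were apart. SH3BP2, an adaptor of immune receptor signalling, had the nearest protein-coding start to an intergenic region, chr4:2785531-2789160. That region had levels of 0.511, 0.534 and 0.429 in the untreated libraries and 1.20, 1.18 and 0.732 in the treated ones (log2 change 1.05 ± 0.17 (SE), adjusted p = 0.00555). The start region of SH3BP2, chr4:2831341-2839030, rose too (log2 change 0.95 ± 0.19 (SE), adjusted p = 0.0191).

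The other members of the 25 largest changes were a mixed set of places. NKG7, a granule protein known from cytotoxic lymphocytes, rose by 1.15 ± 0.13 (log2, SE) at its start, DPEP1, a membrane dipeptidase, by 1.17 ± 0.12, TEX264, a receptor for autophagy of the endoplasmic reticulum, by 1.14 ± 0.13, and SLC22A18, a membrane transporter, by 1.06 ± 0.13. At DPEP1 the called length grew from 4330 to 9397 bp. Its mean signal per called base changed by 0.15 and its maximum signal by 0.27 (adjusted p = 0.935 and 0.678, limma). Starts of noncoding RNAs rose at BCAN-AS2 (1.23 ± 0.17), LINC02870 (1.23 ± 0.13) and ENSG00000280424 (1.08 ± 0.14). Inside genes, the increases lay in an exon of RALGPS1, an exchange factor for Ral GTPases (1.22 ± 0.20), an intron of MAD1L1, a spindle checkpoint gene (1.07 ± 0.11), and an intron of the noncoding ENSG00000266877 (1.31 ± 0.18). At RALGPS1 the called length grew from 2523 to 4963 bp, and the maximum signal changed by 0.41 (adjusted p = 0.394, limma). Between genes, the nearest protein-coding starts were those of IGLL5 of the immunoglobulin lambda locus (1.39 ± 0.16), YTHDF1, a reader of RNA methylation (1.13 ± 0.13), and WNT7B, a Wnt ligand (0.99 ± 0.10). The region named for IGLL5 was chr22:22927251-22933510, 39422 bp from that start. The nearest start of any gene was that of IGLC7, 4657 bp away. The region's levels were 0.468, 0.462 and 0.364 in the untreated libraries and 1.21, 1.38 and 0.842 in the treated ones. Its called length grew from 1950 to 5803 bp and its mean signal per called base changed by -0.12. The named changes all had an adjusted p under 0.05 by limma, the least firm being that of RALGPS1 (adjusted p = 0.00714).

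H3K4me2 fell at 4 regions, all at starts of protein-coding genes. SPRED2, an inhibitor of Ras-ERK signalling, had at chr2:65429841-65434220 levels of 2.79, 2.56 and 2.81 in the untreated libraries and 2.00, 2.00 and 2.24 in the treated ones (log2 change -0.39 ± 0.08 (SE), adjusted p = 0.0393). CDKN1A encodes the cell cycle inhibitor p21, and its region, chr6:36675881-36683550, had levels of 2.54, 2.85 and 3.16 in the untreated libraries and 2.11, 2.00 and 2.28 in the treated ones (log2 change -0.42 ± 0.10 (SE), adjusted p = 0.0491). JADE2, a PHD finger protein of histone acetyltransferase complexes, measured at chr5:134542491-134547330 1.58, 1.85 and 1.55 in the untreated libraries and 1.31, 1.16 and 0.974 in the treated ones (log2 change -0.54 ± 0.11 (SE), adjusted p = 0.0304). NIBAN3, a gene of the B lineage, measured at chr19:17525221-17528510 0.793, 0.952 and 1.25 in the untreated libraries and 0.623, 0.623 and 0.604 in the treated ones (log2 change -0.67 ± 0.14 (SE), adjusted p = 0.0290). The groups did not overlap at any of the 4, but each call was lost in 3 to 5 of the 6 fits without 1 library. At CDKN1A the called length shrank from 5653 to 4257 bp and the mean signal per called base changed by 0.11, in the other direction. With the replicate block all 4 remained called, with adjusted p between 0.00505 and 0.00993.

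Several genes held more than 1 changed region. RGS3, a regulator of G protein signalling, had 3. Its 2 start regions, chr9:113577501-113583130 and chr9:113592241-113597320, went from 1.70, 1.68 and 1.71 to 2.94, 2.88 and 2.56 and from 0.875, 0.904 and 0.908 to 1.35, 1.60 and 1.68. Another region just outside RGS3 rose by 0.54 ± 0.11 on the log2 scale in total signal and changed by -0.04 in mean signal per called base, and one in an intron of the noncoding ENSG00000227482 rose by 0.98 ± 0.12. PRKAR1B, a regulatory subunit of protein kinase A, rose at its start (0.81 ± 0.09) and in an intron (0.72 ± 0.15). RASD2, a Ras-related GTPase, rose at its start (0.50 ± 0.09) and at an intergenic region 58381 bp away (0.86 ± 0.12), and in mean signal per called base these 2 regions changed by -0.44 and -0.05. The regions near WNT7B and at ENSG00000280424 lay in a single stretch of 13.6 kb on chromosome 22. In all, 8 stretches held changed regions within 100 kb of each other. All their members rose, but as 153 of the 157 changed regions rose, a shared direction was largely fixed. How often tested regions lie this close was not counted.

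By place, changed regions lay less often at promoters than the regions tested. Of the changed regions 92 of 157 (58.6%, 95% exact binomial interval 50.5 to 66.4%) lay within 1 kb of an annotated start, against 88.2% of all regions tested. Introns held 30 of 157 (19.1%, 95% exact binomial interval 13.3 to 26.1%) against 4.85%, intergenic stretches 20 of 157 (12.7%, 95% exact binomial interval 7.96 to 19.0%) against 4.27%, and exons away from a start 15 of 157 (9.55%, 95% exact binomial interval 5.45 to 15.3%) against 2.70%. The intervals cover counting error only. More than 10 kb from any protein-coding start lay 62 changed regions (39.5%), against 12.3% of those tested. Among the 88 increases at starts, 23 (26.1%) touched starts of noncoding RNAs or pseudogenes alone, against 7.74% of the tested regions at starts. The median increase was 0.72 at starts, 0.67 in introns, 0.63 in exons and 0.72 between genes.

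The increases reported at protein-coding starts were sorted by the known role of the gene after the regions had been seen. The starts that did not change were not sorted, so the counts have no background share and describe the increases alone. Signalling genes had 17 regions with increases of 0.44 to 1.52 on the log2 scale, at PTPN7, ADAP1, SH3BP2, PIK3AP1, DGKD, SPRY4, RGS3, the adenylyl cyclase gene ADCY6, PRKAR1B, ITPKA, PICK1, SH2B3, RAPGEF1, RASD2, TRAF3IP3 and TRAF1. Genes of adhesion, membrane and cytoskeleton had 14 regions with increases of 0.39 to 1.87, at ITGB2, PXN, MOV10 with RHOC, LCP1, ARHGAP23, the nonmuscle myosin gene MYH9, BIN2, DYSF, SHANK1, the parvin gene PARVG, CPNE7, AGRN and the gelsolin gene GSN. Genes of surface, transported or secreted proteins had 18 regions with increases of 0.38 to 1.17. They were DPEP1, NKG7, SLC22A18, TMEM233, PI16, CD93, the neonatal Fc receptor gene FCGRT, S100A4, GPR78, the chemokine gene CCL3L3, SLC6A6, VGF, HBEGF, P2RX5, GGT5, HTR7, SIGLEC15 and PDGFRB. Genes of transcription and chromatin had 5 regions with increases of 0.55 to 0.82, at POU2F2 (OCT2), BATF, HDAC9, GATAD2A and KMT2E. The remaining 10 lay at TEX264, STX1A, DUS2, PPFIA4, MYEOV, BTBD19, CEP250, KLHL30, BEGAIN and SLX9.

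Increases outside protein-coding starts fell on noncoding transcripts and gene bodies. The 23 regions at noncoding starts included BCAN-AS2, LINC02870, LINC00659, the pseudogene CSPG4P13, LINC02026, LINC01460, LINC01585, EPCAM-DT, NAMA, LINC01814, PVT1, the microRNA genes MIR4437 and MIR4425, LINC00649 and LINC00963, and the rest had Ensembl identifiers only. The 30 intron regions lay in MAD1L1, ST8SIA5, ZNRF1, HIVEP3, CUEDC1, SH3RF3, EXD3, HVCN1, ERCC1, PRKAR1B, CSPG4, IGF2R, SNX9, DIAPH1, SMAD3, BMF, ARID1A, IQSEC2, RMI2, TACC1, RBPMS2, GRK5, CMIP, PTK2B, IFFO2 and the noncoding genes ENSG00000266877, ENSG00000227482, ENSG00000262039, ENSG00000286414 and LINC02580. The 15 exon regions included RALGPS1, HSPB7, PEBP4, LSM14B, OGG1, ADAMTSL2, BMP8A, TOGARAM2, TSPEAR, POC1A, FBRSL1, KLHL33, LHX1-DT and LINC02324. The 20 intergenic regions were 3.91 to 175 kb from the nearest protein-coding start, which was that of IGLL5, YTHDF1, SH3BP2, WNT7B, ELN, RASD2, GIMAP8, NUDT14, GNA12, OPA1, CEBPB, NRGN, CALHM3, SPRY2, NMUR1, ZFP36L1, RGS3, NPHP4, NEK6 or WNT11. CCL3L3 and CSPG4P13 belong to families of near-identical copies, so reads there may come from another copy. The nearest gene is a position and not evidence that the region acts on it.

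Most increases combined a longer called stretch with a higher signal. The median called length of the 153 regions, averaged over the libraries of a group, went from 2990 bp to 4443 bp, and over all regions tested from 2937 to 3157 bp. Both length and mean signal per called base were higher with bryostatin, relative to the library median, at 120 of the 153 (over all regions tested, 10.5%). The median change was 0.40 in length, 0.31 in mean signal and 0.46 in maximum signal. These are parts of the total that chose the regions, so they describe the increases and do not test them. On maximum signal alone limma called 51 regions (0.473%), 37 of them among the 153, on mean signal alone 1 (0.00927%) and on called length alone 6 (0.0556%). In untreated cells 112 of the 153 were below the level of the median region, and their median level was 0.643. The untreated level is also part of the change that chose the regions, so this is a description and not a test. When every library was reduced to an equal count of peaks, 107 of 9545 regions were called.

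An AP-1 element lay at the maximum of the signal in 41 of the 153 increased regions (26.8%) and in 543 of the 10791 tested (5.03%). The search covered the 300 bases around the maximum in the bryostatin library with the highest signal, and the letters TGANTCA read the same on both strands apart from the middle base. At starts the share was 26.1% of the increased regions against 4.39% of those tested, and elsewhere 27.7% against 9.80%. The match lay a median of 51 bp from the maximum, and 4 windows held more than 1. Over their whole length the increased regions held 0.364 matches per kb and all tested regions 0.231 per kb, a smaller ratio than in the windows. Of the 4 lowered regions, 0 had a match. Counted from the sequence side, 7.55% of the 543 tested regions with a match were called higher and 1.09% of the 10248 without one. Among the regions with a match were, besides those shown above, ADCY6, STX1A, POU2F2, PRKAR1B, MYH9, HDAC9, SLC6A6, RAPGEF1, and the introns of BMF, IGF2R, SNX9 and GRK5. Around the maximum in the untreated libraries instead, the share was 19.6% against 4.34%, and among regions called higher on maximum signal it was 45.5%. A match is a stretch of letters and not a bound site.

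Other motifs differed by fewer percentage points. The number of increased regions with a match, with the share of increased against all tested regions, was taken for sites of factors known in B cells. For RUNX (TGTGGTT) it was 16 (10.5% against 3.40%), for PU.1 (GAGGAAGT) 12 (7.84% against 3.12%), for the E protein site CAGGTG 51 (33.3% against 21.4%), for MEF2 10 (6.54% against 1.84%) and for NF-kB 17 (11.1% against 7.88%). The strong ETS site CCGGAAGT was found in 2 (1.31% against 4.55%), the CRE TGACGTCA in 1 (0.654% against 1.59%) and the EGR site GCGTGGGCG in 0 (0% against 1.13%). Both strands were read for each. The windows differed in composition, with a median GC content of 60.3% in the increased and 67.7% in all tested regions (61.0% and 68.7% at starts, 59.3% and 60.3% elsewhere), and the part of composition in these shares was not tested.

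**Figure D3:**
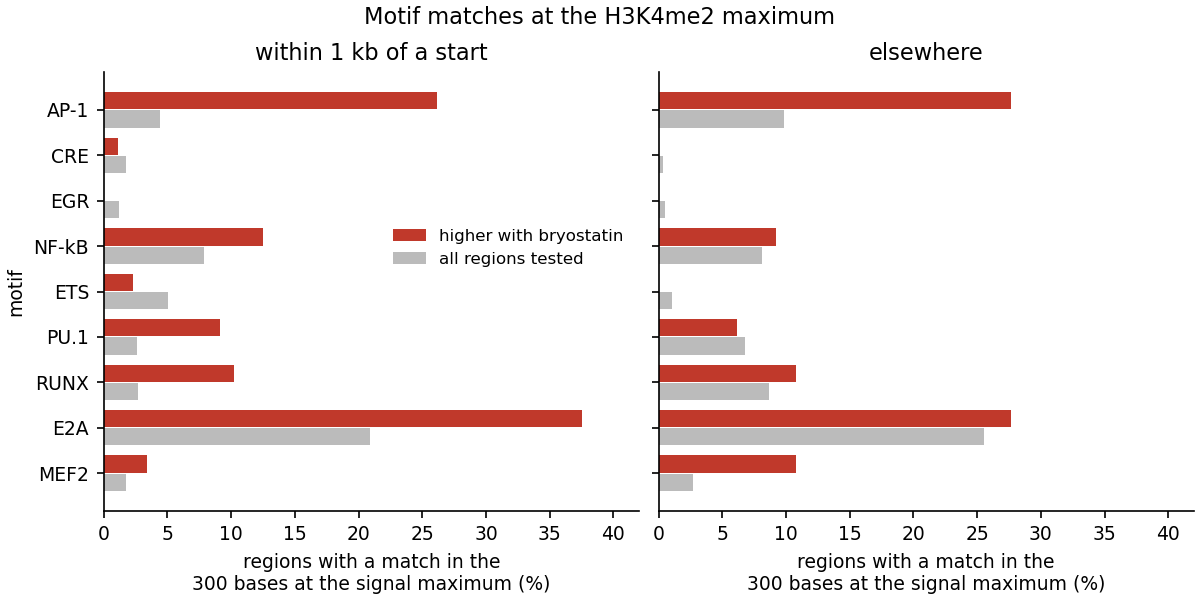
Share of regions (x axis, %) with a match to each motif (y axis) in the 300 bases at the H3K4me2 maximum, for regions higher with bryostatin (red) and all regions tested (grey), within 1 kb of a start (left) and elsewhere (right). AP-1 shows 26.1% against 4.39% at starts and 27.7% against 9.80% elsewhere.

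Of the genes in lists of signalling, lineage, immune and cell cycle genes, protein kinase C signalling among them, most had no change past the threshold at their own starts. Over 15 gene lists 311 of 415 genes had a tested region within 1 kb of a start, of which 9 rose (2.89%) and 2 fell (0.643%). Over all 9868 protein-coding genes with a tested start region the shares were 0.669% and 0.0405%. With the replicate block 16 list genes were higher (5.14%, against 1.12% of all) and 3 lower (0.965%, against 0.304%). The lists were written with results of these data known, so these shares are a description. The median change of the list genes, at the region of highest level of each, was -0.03, beside -0.02 over all regions. In protein kinase C and diacylglycerol signalling 1 of 27 rose (DGKD, median of the list -0.00061). PRKCE, the gene of protein kinase C epsilon, passed with the replicate block alone, at 1 of its 2 tested start regions. The difference there was 0.64 ± 0.17 (adjusted p = 0.119, or 0.00238 with the block). The PRKCE start region of highest level changed by -0.15 (adjusted p = 0.655, or 0.388 with the block, limma). Among the AP-1 subunits 1 of 14 rose, BATF, by 0.65 ± 0.14 in total signal (adjusted p = 0.0369) with -0.01 in maximum signal, and the list's median was -0.07. Of the NF-kB subunits and feedback genes 1 of 19 rose, TRAF1, by 0.44 ± 0.10 in total signal, where the called length grew from 2097 to 4950 bp and the mean signal per called base changed by -0.71. Of the feedback genes of ERK and phosphoinositide 3-kinase 2 of 14 rose, SPRY4 and the adaptor SH2B3, and SPRED2 fell. SH2B3 rose at 1 of 2 tested start regions (0.68 ± 0.15), and that of highest level changed by 0.27 (adjusted p = 0.204, limma). Integrins and adhesion had 2 of 23 higher (ITGB2 and PXN, median 0.04), and the haematopoietic cytoskeleton 1 of 26 (LCP1). Of the B lineage transcription factors 1 of 31 rose, POU2F2, and the list's median was -0.08. At 1 of 2 tested start regions POU2F2 went from 0.646, 0.665 and 0.618 to 1.11, 1.20 and 1.10 (log2 change 0.82 ± 0.09 (SE), adjusted p = 4.32e-04). The POU2F2 start region of highest level changed by 0.17 (adjusted p = 0.653, limma). BCL6, a repressor of germinal centre B cells, had a difference of -0.43 ± 0.15 (adjusted p = 0.282, or 0.0220 with the block).

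In the fit without the replicate block the other lists had no region at a start past the threshold of limma's adjusted p. They were the early response genes of the EGR, NR4A and KLF families (17 genes tested, median -0.08), B cell surface and precursor genes (27, -0.05), MHC class I and antigen processing (15, -0.05), MHC class II (10, 0.0025), ligands of innate and death receptors (14, -0.01), receptors of cytokines, chemokines and G proteins (29, -0.01) and interferon response genes (20, -0.02). With the block 6 of their genes passed, all of them higher. Named after their values were seen, the early response factor KLF6 had a difference of 0.36 ± 0.09 (adjusted p = 0.0605, or 0.0209 with the block), the chemokine receptor CCR7 by 0.83 ± 0.22 (adjusted p = 0.0921, or 0.0104 with the block), the receptor of macrophage colony-stimulating factor CSF1R by 0.39 ± 0.09 (adjusted p = 0.0642, or 0.00763 with the block) and TNFSF4, the OX40 ligand, by 0.43 ± 0.12 (adjusted p = 0.121, or 0.0264 with the block). The tetraspanin CD9 had a difference of 0.42 ± 0.12 at 1 of 2 tested start regions (adjusted p = 0.136, or 0.0444 with the block). CIITA had a difference of 0.65 ± 0.22 at 1 of 3 tested start regions (adjusted p = 0.250, or 0.00450 with the block). At the start region of highest level the change was 0.10 for CD9 and 0.0077 for CIITA (adjusted p = 0.800 and 0.990, limma). Inside the gene of CIITA, the activator of MHC class II genes, a region at the start of ENSG00000262151, chr16:10882711-10893740, rose by 0.72 ± 0.13. Of apoptosis and cell cycle genes 0 of 25 rose at a start and CDKN1A fell, and an intron of BMF, a BH3-only gene of apoptosis, rose by 0.59 ± 0.13. CD22, an inhibitory receptor of B cells, had 3 start regions, of which 2 were tested. Those 2 changed by 0.17 ± 0.10 and 0.12 ± 0.11 in total signal (adjusted p = 0.640 and 0.778, limma) and by -0.13 and -0.15 in maximum signal. At the second of these H3K4me3 rose by 0.62 (adjusted p = 0.00479, limma).

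Of all 20199 merged regions, 13 (0.0644%) had a peak in all 3 treated libraries and in no untreated one, and 0 had the reverse. Such regions can lie only among the 9408 that were not tested, since a tested region had a peak in every library. A peak in all 3 treated libraries and 1 untreated one was found at 44 regions and in all 3 untreated libraries and 1 treated one at 217, so the direction turned with the looser rule. The regions were counted without a test. PLEK, which encodes pleckstrin, a well-known substrate of protein kinase C, had such a region at its start, chr2:68387011-68391800, with maxima of 464, 490.1 and 753 RPKM. The start of USP2, a deubiquitinase, with maxima of 790.2, 765 and 770.3 RPKM, that of MYRF, a membrane-bound transcription factor, with 637, 683 and 788 RPKM, that of S100A2, with 632, 567 and 578 RPKM, and that of IL17RE, an interleukin 17 receptor chain, with 409.9, 413 and 473 RPKM, were of the same kind. The others lay at the starts of the noncoding ENSG00000280326, ENSG00000230385 and GP6-AS1, in exons of ZBTB42 and RIN2, in an intron of RAPGEF1, whose start region also rose (0.54 ± 0.09), and between genes. Those between genes had PKDCC and TMPO as the nearest protein-coding genes. When the same number of peaks was taken from each library, 118 regions were present only in the treated and 38 only in the untreated libraries. The absence of a peak is not the absence of the mark, and the treated libraries were mostly deeper.

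The increased regions carried H3K4me3 less often than the regions tested. H3K4me3 had a peak in at least 1 of the 6 REH libraries at 29 of the 153 increased regions (19.0%), against 85.0% of all regions tested, and at starts at 24 of 88 (27.3%) against 92.6%. The number of treated libraries with an H3K4me3 peak exceeded the number of untreated ones at 15 increased regions (9.80%, against 2.35% of those tested). It fell short at 2 of the 153, against 10.7% of those tested. At 124 of the 153 no library had an H3K4me3 peak, so the numbers could not differ there. By library, 25, 2 and 6 of the increased regions held a peak in untreated replicates 1, 2 and 3 and 11, 27 and 16 in the treated ones, so that untreated replicate 1 alone gave most of the untreated peaks and the groups overlapped. Chosen after their values were seen, FCGRT, VGF, HBEGF, PARVG and RASD2 had, like the ITGB2 region at the canonical start, an H3K4me3 peak in 1 untreated and 3 treated libraries. H3K4me3 could be tested at 4 changed regions, where it rose at SLX9 (0.39 ± 0.08, adjusted p = 0.0414, limma) and at SPRED2 (0.42 ± 0.08, adjusted p = 0.0186), and was 0.14 ± 0.07 at CDKN1A and -0.13 ± 0.08 near WNT11. Over all H3K4me3 regions 0.815% were called higher and 0.857% lower. At SPRED2 the marks moved in opposite directions, with H3K4me3 levels of 1.60, 1.58, 1.31 untreated and 2.01, 1.98, 1.97 treated.

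H3K27me3 overlapped 25 of the 153 increased regions in at least 1 untreated library (16.3%, against 10.1% of those tested). Of these 25, 10 had a peak in fewer treated than untreated libraries (40.0%, against 21.9% of the tested regions with such a peak), and 0 in more (against 5.61%). An untreated peak chose the 25, and 18 of them had it in all 3 untreated libraries. Those 18 could not have a peak in more treated libraries, so the direction was partly fixed by the choice. By library the counts were 25, 20 and 18 untreated and 12, 18 and 20 treated, which overlap. At FCGRT all 3 untreated and 0 of 3 treated libraries had an H3K27me3 peak, at SH3BP2 3 and 1, and at SPRY4 and PTPN7 3 and 3.

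In Raji, a Burkitt lymphoma line, and NALM6, another B cell precursor leukaemia line, limma called no H3K4me2 region as changed under the same test (0 of 9316 and 0 of 4128, with 626 and 56 at an unadjusted p under 0.05). Of the increased REH regions 60 overlapped a tested Raji region, with a median change there of 0.18 and a positive sign at 45, beside a median of -0.03 and 44.9% positive over all Raji regions. Every treated Raji library was deeper than every untreated one. In NALM6 23 could be matched, with a median of 0.05, or -0.05 without replicate 1, which carries another scaling. The difference in response between REH and Raji was tested with an interaction term over 12 libraries, and 2 of 7267 regions passed (0.0275%). At SLC6A6, the taurine transporter, the levels in REH were 1.30, 1.29, 1.19 untreated and 1.87, 2.05, 2.00 treated, and in Raji 3.88, 4.34, 4.47 and 3.46, 3.71, 3.81. The response was 0.86 ± 0.13 higher in REH (log2, adjusted p = 0.0302, limma). At ENSG00000273287, a noncoding RNA, the levels in REH were 0.582, 0.561, 0.501 untreated and 0.779, 0.781, 0.559 treated, which overlap, and in Raji 0.845, 1.29, 1.02 and 0.373, 0.459, 0.442, which do not. The responses were 0.35 in REH and -1.29 in Raji, a difference of 1.64 ± 0.24 (adjusted p = 0.0302, limma). At ITGB2, where the regions merge into 1 over both lines, the difference was 0.90 ± 0.16 and did not pass (adjusted p = 0.123, limma).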

How the data were processed

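H3K4me2 was profiled by Cut&Tag in REH cells, 3 untreated and 3 bryostatin libraries, grouped by their labels. The authors trimmed reads with Trim Galore, aligned them to hg38 with Bowtie2, scaled coverage to RPKM and ran SEACR on every library (versions not given in the sources used here). Each deposited SEACR peak gives its total signal (RPKM coverage summed over bases), its maximum signal and its place, and 10 bp is the bin of the coverage. The dose was 1 nM.

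Peaks overlapping by at least 1 bp were merged, the total signal was summed per region, and regions called in all 6 libraries were log2 transformed and centred on the median of each library. limma 3.58.1 in R 4.3.3 (moderated test with a mean trend, two-sided, Benjamini-Hochberg adjusted p under 0.05 over all regions) compared the groups. The test was also run on simulated data, whose outcome is not reported here. There the deviations of each region were shuffled over the libraries, so replicates of the same number shared none. A region was placed by GENCODE 44 at a start (within 1 kb), else in an exon, an intron or between genes. Motifs were sought in 300 bases of hg38 around the highest bin of the treated libraries. H3K4me3, Raji and NALM6 libraries were treated alike, and the interaction of REH and Raji was fitted on regions called in all 12 libraries. Mapped reads were computed from the smallest step of the RPKM values.

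Replicates that share a number deviated together weakly (Pearson correlations of deviations from the group means 0.131, 0.203 and 0.205 across regions, against -0.173 to 0.0279 for unlike numbers). The main fit takes no account of this, and the replicate number is a block only in the alternative fit. The labels give the numbers and say nothing of a shared day or culture.

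The members and gene lists were chosen with earlier results of these data known. Named regions were the 25 largest changes by absolute log2 change, the lowered regions, the changed regions of each gene list, up to 4 a list, and groups of changed regions within 100 kb. Alternatives were maximum and mean signal, other scalings, filters, gaps, depths and left-out libraries, and those on called length, on libraries left out of both groups and on the AP-1 share were added after the data had been seen. Of the deposited files 24 were not used here. A few regions that met the rule are not reported here.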

Additional observations from a re-analysis of the deposited data

Results flagged for a closer look

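The response of H3K4me2 to bryostatin differed between REH and Raji at 2 regions by the interaction term of limma. At the start of SLC6A6 the response was 0.86 ± 0.13 (log2, SE) higher in REH, with all 3 treated libraries above all untreated ones in REH and all 3 below in Raji (adjusted p = 0.0302). At the start of ENSG00000273287 it was 1.64 ± 0.24 higher in REH (adjusted p = 0.0302), where the treated and untreated libraries overlapped in REH and all 3 treated were below all untreated ones in Raji. On maximum signal the adjusted p was 0.167 at SLC6A6 and 0.685 at ENSG00000273287, and with the replicate block it was 0.0702 and 0.0271.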

How the results depend on the processing

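The count of 157 changed regions moved with the measure and the libraries. limma called 51 regions on maximum signal, 1 on mean signal per called base and 6 on called length (added after seeing the data), 63 among regions above the median signal, 328 when a call in 3 of 6 libraries sufficed and 305 with the replicate block, under which all 157 stayed called. Leaving out a library gave 62 to 352 regions, and leaving out a replicate of both groups, added after seeing the data, 50, 42 and 457 for replicates 1, 2 and 3. No centring gave 145, quantile scaling 168, no mean trend 148, joining peaks within 500 bp 138 and equal numbers of peaks 107. With equal numbers of peaks per library 118 regions were present in the treated libraries alone, beside 13, and 38 in the untreated alone, beside 0. The REH and Raji difference gave 0 regions on maximum signal and 0 on mean signal by limma (472 and 500 regions had an unadjusted p under 0.05), 1 region under the replicate block, 1 with no mean trend and 0 to 19 without a library. Changed regions with changed H3K4me3, 2 in the report, were 1 on maximum signal and 11 with the block. The share at starts, 58.6%, was 43.9% with protein-coding starts alone. The AP-1 share, 26.8%, was 19.6% around the maximum of the untreated libraries, 45.5% for regions called on maximum signal and 18.3 to 31.0% without a replicate of both groups, all added after seeing the data. The cause of these shifts was not tested.

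Of the values at the 45 named regions under the alternatives, 454 kept direction and side of the threshold, 138 kept direction and lost the call and 13 changed sign. On mean signal the sign changed at DGKD (-0.0617), SLX9 (-0.27), near IGLL5 (-0.12), near RASD2 (-0.0508), RASD2 (-0.44), near RGS3 (-0.0421), TRAF1 (-0.71) and CDKN1A (0.11), on maximum signal at BATF (-0.0095). CD22 gave -0.13 and -0.15 on maximum and -0.0827 and -0.26 on mean signal.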
